A study of Mus musculus with 6 samples.

Results

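The RIPOR family of cell polarity proteins has 3 genes in the mouse, *Ripor1*, *Ripor2* and *Ripor3*, and its expression is described here in the prefrontal cortex of mice labelled *Pla2g4e* knockout (KO) and wild type (WT). They were taken by symbol from 56923 genes counted, and all 3 were among the 19084 genes that entered the test. *Ripor2* was chosen by its own counts in these 6 libraries, which lay at 2 separate levels, so those values are given as a description. It entered the fit with all other genes, but no p-value is given for it. *Ripor1* and *Ripor3* were taken as the paralogues of *Ripor2*, and the question put to them was whether their RNA was higher where that of *Ripor2* was low.

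The series holds 6 samples of prefrontal cortex, 3 labelled *Pla2g4e* KO and 3 labelled WT. *Pla2g4e* encodes an enzyme of membrane phospholipids, in the cytosolic phospholipase A2 group, that needs calcium. The KO line carries the constitutive, knockout-first allele Pla2g4e tm2a in the C57BL/6N-A tm1Brd background. A LacZ cassette in this allele is there to trap the spliced transcript and cause its decay, and the paper gives a null allele as predicted. Tissue came from a cut through the front of the brain. The labels name no treatment in either group. The age, sex and litter of the mice sequenced, and whether each library came from a separate animal, are not given in the sources used here, so p-values measure only the spread between these samples. In each library, 11792463 to 14594230 fragments (read pairs) were assigned to genes, mitochondrial genes took 6.13% to 7.41% of them, and neuronal markers summed to 9630 to 11300 counts per 1e6 (CPM). *Xist*, the RNA that coats the inactive X chromosome, was present in 2 libraries, KO replicate 1 (1390 CPM) and WT replicate 1 (969 CPM), with no more than 0.246 CPM in any of the other 4 libraries. RNA of *Pla2g4e* itself was counted in every library, at 5.95, 8.12 and 7.97 CPM in KO replicates 1 to 3 and at 7.84, 11.3 and 13.2 CPM in the libraries labelled WT replicates 1 to 3. These ranges overlapped and the log2 difference (KO/WT) of -0.55 ± 0.21 (SE) had an unadjusted p under 0.05 but did not pass the adjusted limma-voom threshold (adjusted p = 0.635, the lowest value any gene reached). Since WT replicate 1 lay below KO replicates 2 and 3, KO and WT are used here as the names on the labels, for both groups alike. By Western blot, the paper found no Pla2g4e protein in the hippocampus of this KO line. It saw specific immunostaining in WT brain sections only. Whether those mice were the ones sequenced is not given in the sources used here. A trapped transcript can still be counted over the exons of a gene, and the position of fragments within the gene was not analysed here.

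RIPOR proteins act on the actin cytoskeleton and on cell polarity, which in neurons shape dendrites and spines. RIPOR1 (also FAM65A) is linked to kinases of the MST3 and MST4 group at the Golgi of migrating cells. RIPOR2 (also FAM65B) is known from differentiating muscle cells, from the polarity of T cells and from the base of the stereocilia of inner ear hair cells, where its loss causes deafness. RIPOR3 (also FAM65C) is the least characterised of them.

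In the GRCm39 assembly used by the count tables, *Ripor1* (ENSMUSG00000038604.10) lies on the plus strand at chr8:106331887-106348851 with 4108 bases of exon. *Ripor2* (ENSMUSG00000036006.21) lies on the plus strand at chr13:24685508-24917799 with 11825 bases of exon. *Ripor3* (ENSMUSG00000074577.10) lies on the minus strand at chr2:167822084-167852538 with 4244 bases of exon, on the chromosome of *Pla2g4e* but 47.7 Mb beyond it. All 3 are protein-coding genes. In GENCODE M21, which annotates the earlier assembly GRCm38, *Ripor1* has 1 transcript, *Ripor2* has 13 (5 of them coding) and *Ripor3* has 4 (1 coding).

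*Ripor2* can be transcribed from several start sites far apart, and the count of a gene adds them all up. RefSeq sequences were available for 3 of these starts in GRCm38.p6. They are shown because the *Ripor2* counts below are the sum over transcripts from all of them, and from which start the counted RNA came was not analysed here. Each run is the plus strand, 5′ to 3′, of the 250 bases that end just before the start site, at chr13:24581939-24582188, chr13:24614356-24614605 and chr13:24638398-24638647, with every CG dinucleotide in capitals.
Ripor2 window 1: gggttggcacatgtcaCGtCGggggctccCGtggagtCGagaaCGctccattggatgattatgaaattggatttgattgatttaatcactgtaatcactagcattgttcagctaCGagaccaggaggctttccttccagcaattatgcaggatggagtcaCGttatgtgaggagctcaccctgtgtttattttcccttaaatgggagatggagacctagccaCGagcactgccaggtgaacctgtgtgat
Ripor2 window 2: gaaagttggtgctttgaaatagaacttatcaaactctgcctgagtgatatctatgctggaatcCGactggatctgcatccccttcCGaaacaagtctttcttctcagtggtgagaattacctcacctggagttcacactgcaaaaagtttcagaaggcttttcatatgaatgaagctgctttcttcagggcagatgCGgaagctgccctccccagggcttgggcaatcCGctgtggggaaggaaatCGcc
Ripor2 window 3: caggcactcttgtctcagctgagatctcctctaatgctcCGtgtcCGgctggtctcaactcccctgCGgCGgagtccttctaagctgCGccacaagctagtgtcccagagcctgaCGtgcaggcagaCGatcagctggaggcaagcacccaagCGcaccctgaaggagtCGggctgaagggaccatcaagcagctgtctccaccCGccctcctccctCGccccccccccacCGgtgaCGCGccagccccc
The motif searched was CG, which reads the same on both strands. Window 1 holds 8 CG and 48.4% G or C. In GRCm38 it was placed at the first start of the gene, where transcript Ripor2-204 begins. Its place within the gene as counted in GRCm39 was not examined. Window 2 holds 5 CG and 48% G or C, lies in an intron of the longer transcripts, and is followed within 50 bases by the starts of 3 transcripts, 1 of them coding. Window 3 holds 14 CG and 65.2% G or C, also lies in an intron of longer transcripts, and is followed by the starts of 4 transcripts, 3 of them coding. Over 32851 such windows in the mouse the median was 6 CG, and 43%, 55.6% and 29.4% of them held at least as many as windows 1, 2 and 3. The single *Ripor1* window held 18 CG (as many in 21.7% of windows) and that of *Ripor3* held 4 (62.2%). Methylation and chromatin at these windows were not analysed here.

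*Ripor2* RNA stood at a common level in 4 of the 6 libraries and was nearly missing from the other 2, both of them labelled WT. Counts were 445, 381 and 356 fragments in KO replicates 1 to 3, and 11, 366 and 12 fragments in the libraries labelled WT replicates 1 to 3. After scaling for library size this was 30.1, 31.9 and 27.8 CPM in the KO libraries against 0.862, 30 and 0.942 in those labelled WT. All 3 KO libraries and WT replicate 2 were therefore high, and WT replicates 1 and 3 were low. The 4 higher libraries differed among themselves by 1.15-fold from lowest to highest, with an SD of 0.08 on the log2 CPM scale. The lowest of them was 29.5-fold above the higher of the 2 low libraries, a gap of 4.83 on that scale.

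The exact 95% Poisson interval, which covers counting error only, was 0.43 to 1.54 CPM in WT replicate 1 and 0.487 to 1.65 CPM in WT replicate 3. In the 4 higher libraries the intervals lay between 25 and 35.3 CPM. In order of level, neighbours within the upper 4 and within the lower 2 had overlapping intervals. *Ripor2* was chosen for the step between these levels, so the intervals describe the counts and are no test of it. Because these are bulk samples, fewer cells that express a gene and less RNA per cell cannot be told apart.

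The mean of the WT group described none of its libraries. KO averaged 29.9 ± 2.06 CPM and WT 10.6 ± 16.8 CPM (SD, n = 3 each), and the WT libraries held values on both sides of their own mean. The log2 difference (KO/WT) was 3.37 ± 0.74 (SE) in limma-voom, and it moved with the method and with single libraries. It was 1.51 in edgeR, 1.49 in DESeq2 and 1.63 with the replicate number as a block. It was 2.51 without WT replicate 1, 2.57 without WT replicate 3 and 4.99 without WT replicate 2.

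**Figure D1:**
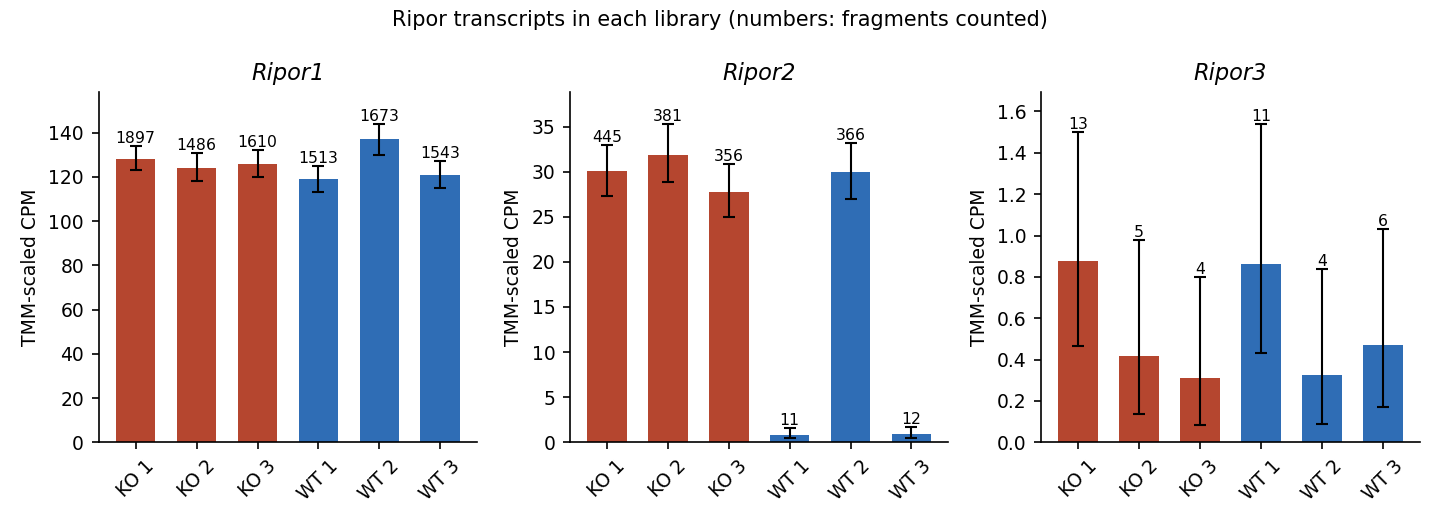
Level of *Ripor1*, *Ripor2* and *Ripor3* in each of the 6 libraries, in CPM on a linear axis from 0 with its own scale for each gene, with KO and WT replicates 1 to 3 side by side, bars for the level, numbers for the fragments counted and error lines for the exact 95% Poisson interval of the count. *Ripor1* stays between 119 and 137 CPM in all libraries, *Ripor2* stands at 27.8 to 31.9 CPM in 4 libraries and at 0.862 and 0.942 CPM in WT replicates 1 and 3, and *Ripor3* is below 1 CPM throughout.

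*Ripor1*, the most abundant of the 3 in this tissue, was not higher in the 2 libraries that lacked most of their *Ripor2* RNA. Counts were 1897, 1486 and 1610 fragments in the KO libraries and 1513, 1673 and 1543 in the WT libraries, or 128, 124 and 126 CPM (KO) and 119, 137 and 121 CPM (WT). WT replicates 1 and 3 had the lowest values of the 6, and WT replicate 2 the highest. They lay 4.71% and 2.69% below KO replicate 2, the next library in order. The counting intervals of WT replicates 1 and 3 were 113 to 125 CPM and 115 to 127 CPM. Both overlapped that of KO replicate 2 (118 to 131 CPM) but not that of WT replicate 2 (130 to 144 CPM). From lowest to highest library *Ripor1* spanned 1.15-fold.

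Between the labelled groups *Ripor1* had means of 126 ± 1.91 CPM (KO) and 126 ± 9.94 CPM (WT; SD, n = 3 each). The log2 difference was 0.01 ± 0.07 (SE), with an adjusted p of 0.977 in limma-voom, and its 95% interval ran from 0.905-fold to 1.12-fold. The adjusted p was 0.9 to 1 over 16 alternative settings, and the sign of this small difference was not the same in all of them.

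*Ripor3* was close to the limit of detection in every library. Counts were 13, 5 and 4 fragments in the KO libraries and 11, 4 and 6 in the WT libraries, or 0.879, 0.419 and 0.312 CPM (KO) and 0.862, 0.327 and 0.471 CPM (WT). The first replicate of each label, the libraries with *Xist*, had the most, with counting intervals that overlapped those of the other 4, and both groups covered a like range. Means were 0.537 ± 0.301 CPM in KO and 0.554 ± 0.277 CPM in WT (SD, n = 3 each), and the log2 difference was -0.03 ± 0.56 (SE, limma-voom adjusted p = 0.992). The 95% interval of this difference ran from 0.419-fold to 2.28-fold, so these 3 libraries a group, at 4 to 13 fragments each, left it wide. WT replicates 1 and 3, with 11 and 6 fragments of *Ripor3*, lay inside the range of the other libraries (4 to 13 fragments).

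With *Ripor2* split into 2 levels, a correlation of the paralogues with it over the 6 libraries was not computed, since it would rest on the 2 low libraries alone. Of all genes tested, 0% passed the adjusted threshold in the comparison of KO with WT, 4.38% were higher in KO and 3.44% lower at an unadjusted p under 0.05. Neither *Ripor1* nor *Ripor3* had an unadjusted p under that value (0.887 and 0.952 in limma-voom).

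Levels of different genes were compared per length of exon, as CPM per kilobase (FPKM). *Ripor1* was at 31.2, 30.3 and 30.6 FPKM in KO and 28.9, 33.3 and 29.5 FPKM in WT. *Ripor2* was at 2.54, 2.7 and 2.35 FPKM in KO and at 0.0729, 2.53 and 0.0796 FPKM in WT. *Ripor3* was at 0.207, 0.0987 and 0.0736 FPKM in KO and 0.203, 0.0771 and 0.111 FPKM in WT. *Ripor1* was thus at least 10.7-fold above *Ripor2* in any pair of libraries. The exon length of *Ripor2* joins all its transcripts, which lowers its FPKM when the shorter ones are used.

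The summed FPKM of the family was 34, 33.1 and 33 for KO and 29.1, 35.9 and 29.7 for WT, lowest in the 2 libraries with little *Ripor2* RNA. *Ripor2* made up 7.49%, 8.15% and 7.12% of that sum in KO, 7.05% in WT replicate 2, and 0.25% and 0.268% in WT replicates 1 and 3. *Ripor1* made up 91.5% to 92.7% in the 4 libraries with more *Ripor2* and 99.1% and 99.4% in the other 2. Shares of a sum move against each other, and the level of *Ripor1* itself, in FPKM, was the lowest of the 6 in these libraries.

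Genes that overlap the members had few fragments. *Mir1966* lies on the strand of *Ripor1* over exon sequence and took no more than 2 fragments in any library, while *Agrp*, which encodes a hypothalamic feeding peptide, lies opposite *Ripor1* with at most 3. The antisense gene *Gm11346* lies inside *Ripor2* without touching its exons. It had 5, 1 and 2 fragments in KO and 0 in all 3 WT libraries, WT replicate 2 included, counts too low to set against those of *Ripor2*. *Gm14236*, opposite *Ripor3*, had no fragment in any library.

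To set the step of *Ripor2* against other genes, the 6 libraries were put in order for each of 15204 genes whose mean log2 CPM reached 0, and the largest gap between neighbours in that order was taken. *Ripor2* ranked at place 8. Above it stood *Xist* with a gap of 11.72 log2 units and 5 Y-linked genes, *Eif2s3y*, *Kdm5d*, *Uty*, *Ddx3y* and *Gm29650*, with gaps of 10.59 to 6.86. Those 6 genes divide the libraries differently, with KO replicate 1 and WT replicate 1 on one side and the other 4 on the other. Each of these classes thus held 1 of the libraries with low *Ripor2* and at least 1 with high *Ripor2*. The only other autosomal gene with a gap at least as large was *Eomes*, a T-box transcription factor found in olfactory bulb neurons, with 23.3, 3.85 and 1.8 CPM in the KO libraries against 5.33, 0 and 1.73 in those labelled WT, where the gap separates WT replicate 2 at 0 fragments. Gaps against a library at 0 depend on the 0.5 fragments added to each count before the log. With counts raised to at least 3 fragments instead, a setting chosen after seeing the data, *Ripor2* ranked at place 6 with a gap of 4.88, behind *Xist* and 4 Y-linked genes, and *Eomes* fell to 2.81.

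WT replicates 1 and 3 were the 2 lowest libraries for 802 of these genes. *Ripor2* was the only one in which they lay at least 1 log2 unit below the rest. Next came *Trat1*, an adaptor of the T cell receptor, with a gap of 0.94 from 25, 21 and 24 fragments in the KO libraries and 11, 21 and 10 in the WT libraries. It was followed by *Gm26691* (0.75) and by *Dlk1*, a Notch-related membrane protein (0.66). Both *Ripor2* and this pair of libraries were picked by the same counts. The place of *Ripor2* here and its rank by largest gap are therefore a description and no test.

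**Figure D2:**
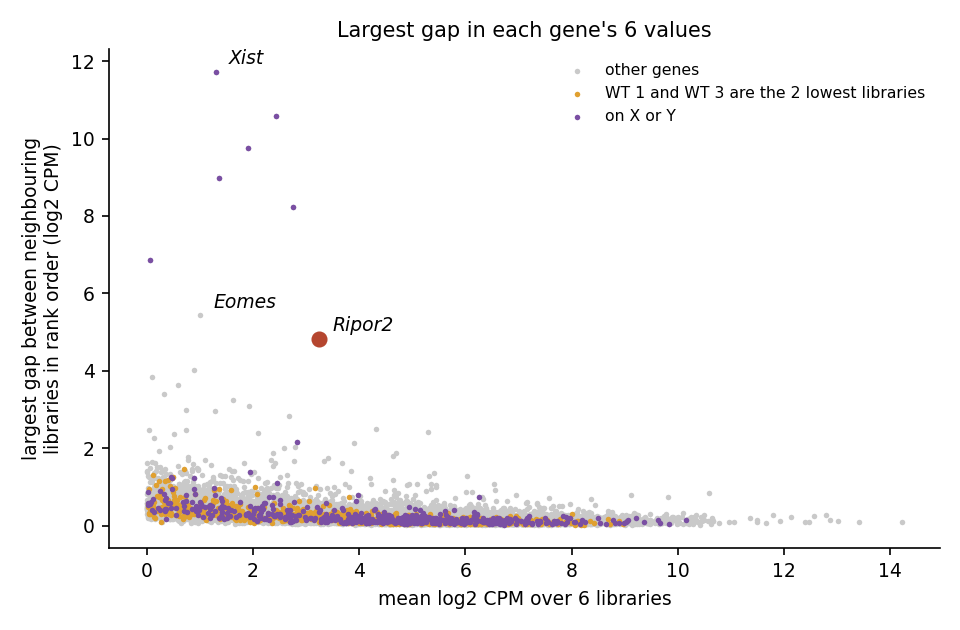
Largest gap between neighbouring libraries on the log2 CPM scale against the mean log2 CPM, 1 point for each of 15204 genes, with the genes in which WT replicates 1 and 3 are the 2 lowest libraries in yellow and genes on X or Y in purple (the height shown is the gene's largest gap, wherever it falls in the order). *Ripor2* lies at 4.83, below *Xist*, 5 Y-linked genes and *Eomes* and far above the yellow genes.

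The genes whose profile over the 6 libraries was most like that of *Ripor2* came nowhere near its step. Likeness was measured as the root-mean-square distance between centred log2 CPM values, for which a gene with the same level in every library would score 2.35 and the median of 15203 genes was 2.36. The smallest distance was 1.68, for *Gm44164*, with 31, 17 and 30 fragments in the KO libraries and 5, 20 and 12 in the WT libraries. *Gm33195*, another gene without a described role, followed at 1.80 and is on chromosome 13 like *Ripor2*. The other 8 were *Gm42913*, *Gm26691*, *Aanat*, *Trat1*, *A930035D04Rik*, *Dlk1*, *Atoh7* and *Gm9754*, at 1.83 to 1.90.

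*Aanat*, the penultimate enzyme of melatonin synthesis, had 25, 22 and 20 fragments in the KO libraries against 6, 17 and 14 in the WT ones. *Atoh7*, a transcription factor of retinal ganglion cells, had 30, 20 and 27 in the KO libraries against 11, 28 and 14 in the WT ones. These 10 genes were all counted with 5 to 38 fragments in a library. Genes most like the mirror image of *Ripor2* were *Bcl6b*, *Gm30563*, *S100a11*, *Unc45b* and *Nek11*, at 1.88 to 1.94. *Unc45b*, a chaperone of muscle myosin, had 17, 18 and 14 fragments in the KO libraries against 45, 21 and 25 in the WT ones. *S100a11*, a calcium-binding protein, had 29, 12 and 25 in the KO libraries against 44, 18 and 33 in the WT ones. *Ripor1* (2.31) and *Ripor3* (2.63) stood near or beyond the flat profile.

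Genes beside *Ripor2* on chromosome 13 did not share the size of its step. Of 27 genes within 500 kb, 12 were tested. None passed the adjusted limma-voom threshold and 1, higher in KO, had an unadjusted p under 0.05, as in edgeR and in DESeq2 (8.33% of those tested, against 4.38% of all genes higher and 3.44% lower). That 1 became 3 without KO replicate 2, 0 without KO replicate 1 and 2 with scaling by library totals alone. In all, 8 were higher and 4 lower in KO, with a median log2 difference of 0.11 (0.01 over all genes tested). Among the 11 tested neighbours with at least 1 CPM, the largest ratio of highest to lowest library was 1.88-fold, for *9330162012Rik*.

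Before *Ripor2*, *Cmah* ends 24.1 kb away and had at most 4 fragments in a library. *Carmil1*, which regulates actin capping, lies 221 kb away and was at 39.7, 30.5 and 34.6 CPM in the KO libraries against 26, 30 and 28.9 in those labelled WT. Its log2 difference was 0.31 ± 0.11 (SE, adjusted p = 0.635 in limma-voom), the only neighbour with an unadjusted p under 0.05. It was 0.20 without KO replicate 1, 0.25 without WT replicate 1 and 0.14 in the 4 libraries without *Xist*, each with an unadjusted p above 0.05. WT replicates 1 and 3 were its 2 lowest libraries, as for *Ripor2*, and WT replicate 2 lay between them and the KO libraries.

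Beyond *Ripor2*, *Armh2* begins 7.42 kb away and had no fragment. *Gmnn*, the inhibitor of DNA replication licensing geminin, begins 18 kb away and was at 2.77, 3.94 and 2.89 CPM in the KO libraries against 2.98, 3.19 and 2.35 in those labelled WT. *Acot13*, a thioesterase, was at 38, 41.6 and 38 CPM in the KO libraries against 40.8, 40.3 and 42 in those labelled WT. *Tdp2*, which repairs topoisomerase adducts on DNA, was at 17.8, 19.5 and 19.9 CPM in the KO libraries against 19.8, 18 and 20.2 in those labelled WT. For none of these 3 did WT replicates 1 and 3 both lie below the other libraries, but for 3 of the 11 neighbours with at least 1 CPM they did (27.3%, against 5.27% of the 15204 genes above). Besides *Carmil1* these were *Aldh5a1*, an enzyme of GABA breakdown, at 106, 103 and 101 CPM in the KO libraries against 93.4, 101 and 91.5 in those labelled WT, and *Mrs2*, a mitochondrial magnesium channel, at 120, 111 and 110 CPM against 99.7, 112 and 108. The step between these 2 libraries and the rest was at most 0.11 log2 units in them (*Aldh5a1*), against 4.83 in *Ripor2*. This order was looked for after the values were seen, and no test was made of it.

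**Figure D3:**
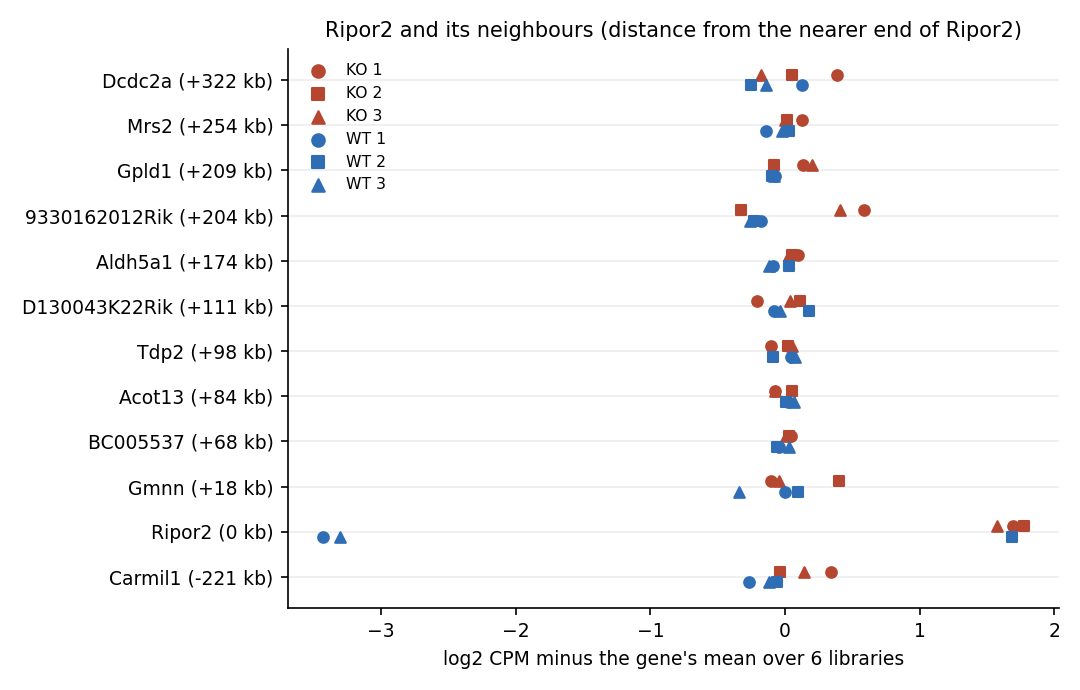
Level of *Ripor2* and of the 11 tested genes within 500 kb that had at least 1 CPM, as log2 CPM minus the gene's own mean, 1 point for each library, ordered by their place along chromosome 13. *Ripor2* alone has WT replicates 1 and 3 far to the left, while the neighbours span at most 1.88-fold from lowest to highest library.

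Genes linked to RIPOR proteins were compared between KO and WT as 2 lists, all of them tested. These were 14 partners and 6 genes listed by site, the base of stereocilia. None passed the adjusted threshold in limma-voom, edgeR or DESeq2. At an unadjusted p under 0.05, 1 partner was higher in KO (7.14%, against 4.38% of all genes) and 3 were lower (21.4%, against 3.44%), 4 in all and 4 also in edgeR and in DESeq2. The 4 became 2 without WT replicate 2, 7 without WT replicate 3 and 1 in the 4 libraries without *Xist*. The median log2 difference was -0.10 over the partners and 0.09 over the stereocilia genes, against 0.01 over all genes tested.

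Of 14 partners of RIPOR proteins, 4 were higher and 10 lower in KO. *Stk26*, which encodes the MST4 kinase, was at 7.98, 8.12 and 8.59 CPM in the KO libraries against 6.58, 5.4 and 6.75 in those labelled WT, a log2 difference of 0.40 ± 0.15 (SE). The 14-3-3 genes, whose products bind phosphorylated RIPOR2, are part of this list, and no test was made of them as a group. All 6 *Ywha* genes had a negative difference under each scaling, but only the 3 given next had an unadjusted p under 0.05 in limma-voom. *Ywhaz* was at 440, 459 and 469 CPM in the KO libraries against 572, 572 and 475 in those labelled WT, a difference of -0.24 ± 0.08 (SE). *Ywhae* was at 591, 586 and 597 CPM in the KO libraries against 698, 681 and 630 in those labelled WT (-0.18 ± 0.06). *Ywhag* was at 852, 992 and 959 CPM in the KO libraries against 1130, 1160 and 942 in those labelled WT (-0.20 ± 0.08), and here the groups overlapped. For these 3 genes WT replicate 1 lay beside WT replicate 2 and WT replicate 3 was the lowest of the WT libraries, an order other than that of *Ripor2*. All 4 named partners had an adjusted p of 0.635. WT replicate 3 was also the lowest of the WT libraries for 2 abundant neuronal markers. *Snap25*, a protein of synaptic vesicle release, was at 2260, 2590 and 2580 CPM in the KO libraries against 2760, 3120 and 2590 in those labelled WT, and *Slc17a7*, a vesicular glutamate transporter, was at 1160, 1480 and 1460 CPM against 1630, 1600 and 1390. *Syt1*, *Camk2a* and *Rbfox3* had WT replicate 1 as the lowest of the WT libraries, with log2 differences of -0.14, 0.00 and -0.01, and *Gad1* and *Gad2*, enzymes of GABA synthesis, had differences of 0.33 and 0.10. Of the 7 in all, 4 had a lower mean in KO, and their sum was 9630 to 10700 CPM in KO and 10300 to 11300 CPM in WT. Their part in the values of the 14-3-3 genes was not tested.

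*Hdac6*, a deacetylase that joins RIPOR2 in differentiating muscle cells, was at 66.5, 62.3 and 63 CPM in the KO libraries against 59.1, 58.4 and 56.3 in those labelled WT, with a log2 difference of 0.14 (adjusted p = 0.637 in limma-voom). Of 6 genes of the base of stereocilia, 4 were higher and 2 lower in KO, and their lowest adjusted p was 0.659.

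**Figure D4:**
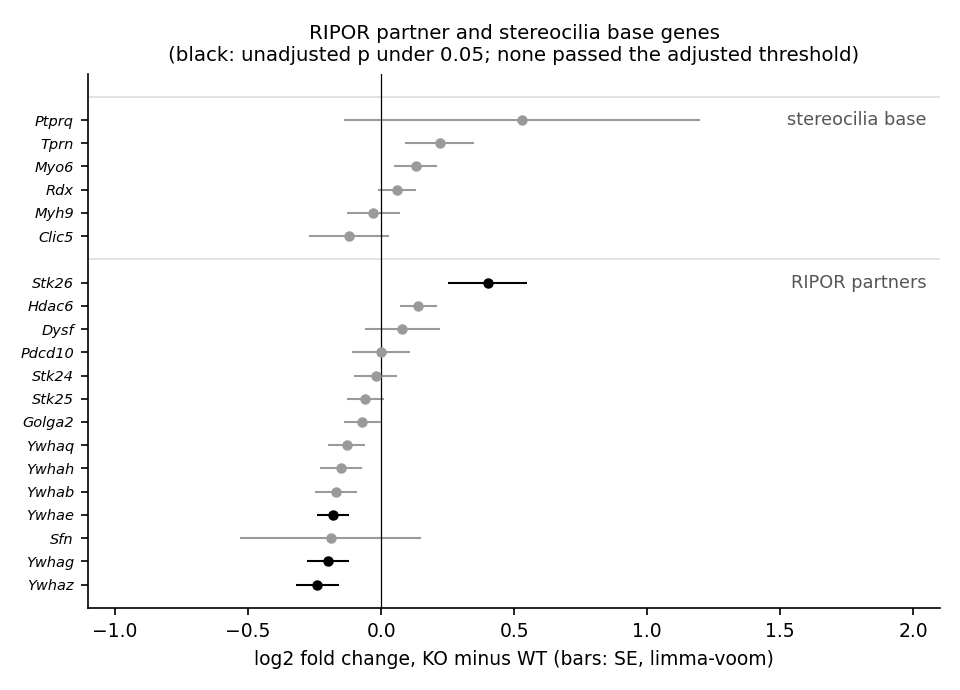
Log2 difference (KO/WT, horizontal axis) with its SE from limma-voom for each of the 14 partner genes and 6 stereocilia genes, in black where the unadjusted p is under 0.05. Differences lie between -0.24 (*Ywhaz*) and 0.53 (*Ptprq*), and none passes the adjusted threshold.

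Markers of cell types were summed in 13 lists to see whether the libraries with little *Ripor2* RNA shared another composition. All 70 markers had a fragment in at least 1 library. In 0 of the 13 lists did WT replicates 1 and 3 both lie above, or both below, all of the other 4 libraries. Among the 15204 single genes above, they were the 2 lowest libraries for 5.27%. With a share that low, 0 of 13 lists says little on whether composition differed. Neuronal markers summed to 10300 and 10400 CPM in these 2 libraries and to 9630 to 11300 CPM in the others. Oligodendrocyte markers were at 1690 and 2800 CPM, the lowest and the highest of the 6. The T cell markers, a cell type known for RIPOR2, summed to 2.19 and 5.26 CPM, again the lowest and the highest, against 2.62 to 3.18 CPM in the others. Their defining genes *Cd3e* and *Cd3d* had 0 to 0.234 CPM in every library, and *Cd3d* was at 0 in all but KO replicate 1. Olfactory bulb markers ranged from 13.7 to 224 CPM, highest in KO replicate 1. Choroid plexus markers ranged from 5.17 to 34.4 CPM, highest in WT replicate 2, where *Ttr* alone was at 26.8 CPM. Mitochondrial genes took 6.48% and 7.39% of fragments in WT replicates 1 and 3, inside the range of the other libraries. Whether cell composition or dissection had a part in the *Ripor2* levels was not tested.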

How the data were processed

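Polyadenylated RNA of the prefrontal cortex was measured by sequencing, with 3 KO samples and 3 WT samples grouped by their titles. The deposited values are raw counts of fragments per gene, 1 table a sample. The submitters' processing notes name FastQC 0.11.8, STAR 2.7.9a and featureCounts 1.6.0. Per the file headers, exonic fragments were counted with strand option 2 on GENCODE M31 (GRCm39), while the study's methods name an earlier assembly, so coordinates of genes are those in the files. The headers list no option for fragments that map to several places or genes, so such fragments were not counted.

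Symbols came from GENCODE M21 by gene identifier (52073 of 56923 genes matched) and start windows from RefSeq (GRCm38.p6). As in the study's methods, genes with at least 6 fragments in at least 1 library (19084) were kept and edgeR, voom and limma were used. TMM scaling (edgeR 4.0.16) and the threshold were chosen here, and limma-voom compared KO with WT (limma 3.58.1, R 4.3.3, two-sided, Benjamini-Hochberg adjustment, threshold 0.05). CPM and FPKM were computed from the counts after TMM scaling. Alternatives were edgeR's quasi-likelihood test, DESeq2 1.42.0, other scaling and filters, quality weights, a replicate block, an *Xist* covariate and leaving out each library. The scripts were tested on simulated data.

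Named genes were the 3 members, the 10 genes most like *Ripor2* and the 5 most opposite, neighbours within 500 kb and overlapping genes, and partner genes with an unadjusted p under 0.05. Other pathway lists are not reported here. *Hdac6*, *Eomes*, the neuronal markers and the sex-linked genes were named after their values were seen. Members and lists were chosen with earlier results of these data known. Fragments carry no molecular identifiers, so intervals cover counting error only.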

Additional observations from a re-analysis of the deposited data

How the results depend on the processing

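The log2 difference (KO/WT) of *Ripor2* was 1.49 to 4.99 over 16 alternatives, and 2.51 to 4.99 when 1 library was left out. Its sign was fixed by the counts it was chosen for and says nothing of stability. *Ripor1* had no stable sign: its log2 difference was -0.01 with library quality weights (adjusted p = 0.979), -0.04 in only the 4 libraries without *Xist* (an alternative chosen after seeing the data, adjusted p = 0.999), and -0.03 to 0.07 when 1 library was left out. That of *Ripor3* was -0.47 to 0.32 when 1 library was left out, and *Ripor3* could not be tested under edgeR's own filter on low counts. The cause was not tested. Neither paralogue passed the threshold in any alternative.

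Over all genes, limma-voom called 0 (1492 at an unadjusted p under 0.05) and edgeR 0 (1507). DESeq2 called 1, *Sst*, the *Xist* covariate 24, and the 4 libraries without *Xist* 3 (*Eps8l1*, *Col6a4* and *Gfap*). Leaving out 1 library gave 0 to 1 calls, the 1 being *Ripor2* without WT replicate 2, which its choice fixes and which is no test outcome. The cause was not tested. Partners of RIPOR proteins and neighbours of *Ripor2* had 0 calls in every alternative.

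Same-numbered libraries had correlations of deviations of 0.230, 0.045 and -0.014. Whether the replicate numbers pair the samples cannot be told from these values alone. With the replicate block, 0 genes passed (1693 at an unadjusted p under 0.05) and the *Ripor2* difference was 1.63. *Ripor3* had only 4 to 13 fragments in a library.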
